A study of Mus musculus with 6 samples.

Results

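The genes described here carry arachidonic acid from the membrane to prostaglandin E2 (PGE2): Pla2g4a for its release, Ptgs1 and Ptgs2 for the cyclooxygenases, and Ptges, Ptges2 and Ptges3 for the PGE2 synthases. They were taken by symbol, and all 6 of the 6 were rows of a count table of 18197 symbols and entered the test of 16543 genes. The table holds RNA-seq counts of cancer-associated fibroblasts sorted from mammary tumours of C57BL/6 mice, in triplicate for each genotype label, WT (3 libraries) and mPGES-1 KO (3 libraries). Both groups carried tumours induced by the polyoma middle T oncogene (PyMT), harvested between 16 and 20 weeks, and neither is given a treatment. The labels give neither the part of the gene that the KO allele lacks, nor whether it is lost in all cells, nor the promoter that drives the oncogene, nor whether animals were pooled. The groups are called WT-labelled and KO-labelled here, because the RNA of the targeted gene does not show which libraries carry the deletion.

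PGE2 is made in 3 steps. Cytosolic phospholipase A2 cuts arachidonic acid from membrane phospholipids, a cyclooxygenase oxidises it to the unstable intermediate PGH2, and a terminal synthase turns PGH2 into PGE2. Cyclooxygenase-1 is the form found in most resting cells, while cyclooxygenase-2 and microsomal PGE synthase-1 (mPGES-1) are induced together by inflammatory signals and are studied in tumour stroma and tumour epithelium alike.

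The stretches before the start sites of Ptges, Ptgs2 and Pla2g4a, the 3 genes whose KO-labelled values all lay above the WT-labelled ones, are shown with the motif matches found in them. Each holds the 250 bases before the RefSeq start site on GRCm38.p6, written along the strand of the gene. Capitals mark matches to any of 9 motifs, searched on both strands. These were the GC box GGGCGG, the binding palindrome of C/EBP factors TTGCGCAA, the TATA box as TATAAA, the CCAAT box, the core of the cAMP response element ACGTCA, the E-box written CACGTG, the site of EGR factors GCGNGGGCG, the binding site of AP-1 TGANTCA and the NF-kB consensus; GC box and EGR site can overlap. The Ptges window lies at chr2:30903298-30903547 on the minus strand, the Ptgs2 window at chr1:150099781-150100030 on the plus strand and the Pla2g4a window at chr1:149961291-149961540 on the minus strand.
Ptges: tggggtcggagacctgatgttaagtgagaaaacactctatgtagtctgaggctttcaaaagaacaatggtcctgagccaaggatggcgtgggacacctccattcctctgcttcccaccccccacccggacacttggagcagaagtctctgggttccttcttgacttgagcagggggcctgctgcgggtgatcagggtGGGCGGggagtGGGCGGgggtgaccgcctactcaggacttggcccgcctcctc
Ptgs2: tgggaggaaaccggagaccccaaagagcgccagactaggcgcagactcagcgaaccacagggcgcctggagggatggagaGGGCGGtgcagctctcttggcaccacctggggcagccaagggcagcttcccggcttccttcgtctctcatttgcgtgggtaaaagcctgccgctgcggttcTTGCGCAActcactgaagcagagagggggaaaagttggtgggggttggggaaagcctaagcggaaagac
Pla2g4a: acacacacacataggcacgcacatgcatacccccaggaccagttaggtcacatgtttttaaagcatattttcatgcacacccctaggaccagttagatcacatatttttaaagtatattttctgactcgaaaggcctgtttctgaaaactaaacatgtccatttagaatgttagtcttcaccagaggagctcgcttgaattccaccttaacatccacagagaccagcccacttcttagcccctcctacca

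Ptges held 2 GC boxes, 53 to 48 and 42 to 37 bases before its start. Ptgs2 held 1 GC box, 170 to 165 bases before its start, and 1 C/EBP palindrome at 69 to 62 bases. The outer of 2 Pla2g4a start sites, shown here, held none of the 9 motifs, while the window of the inner one held a TATA box match 200 to 195 bases before its start. The window shown had a GC content of 43.2%, against 59.6% for Ptges, 61.6% for Ptgs2 and a median of 52% over 27025 genes with a window. The GC box is common, present in 32.9% of those windows, and the C/EBP palindrome is rare, at 0.17%. Among the other members Ptges3 held 3 GC boxes, Ptges2 1 E-box (a motif in 6.05% of windows) and Ptgs1 no match. No motif was found in the windows of Ptges, Ptgs2 and Pla2g4a alike, and a missing match says only that these letters are not in this window.

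Total counts per library ran from 23013498 to 43648450, and the 6 genes had between 2831 (Ptgs1) and 16060 (Ptges) counts over all libraries. Levels are given as CPM, the count scaled to the TMM-adjusted library total, and, to compare genes with each other, as CPM per kilobase of exonic sequence. In edgeR's quasi-likelihood test, with p-values adjusted over every tested gene, those under 0.05 counted as called. There were 456 of them, 2.76% of the tested genes, 1.20% higher and 1.56% lower in the KO-labelled libraries. An unadjusted p under 0.05 was found for 19.1% of the tested genes in edgeR, and DESeq2 called 14.3% and limma-voom 11.9% of the genes to which each gave an adjusted p. The number of calls depended on single libraries. Without WT replicate 2, KO replicate 2 or KO replicate 3 the whole table gave 1, 0 and 0 called genes, with 2352, 2574 and 2975 at an unadjusted p under 0.05. It gave 150 without WT replicate 3, 160 without KO replicate 1 and 568 without WT replicate 1.

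Of the 6 genes, Pla2g4a and Ptges rose in the KO-labelled libraries and 4 did not pass. None was called lower by edgeR or by DESeq2, while Ptges2 was lower at an unadjusted p = 0.0147 in edgeR and was called by limma-voom. In 4 of the 6 the libraries of the groups did not overlap, higher in the KO-labelled libraries for Pla2g4a, Ptgs2 and Ptges and lower for Ptges2; the same held for 27.9% of the genes tested. The median log2 fold change over the 6 genes was 1.20, beside -0.04 over all tested genes.

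**Figure D1:**
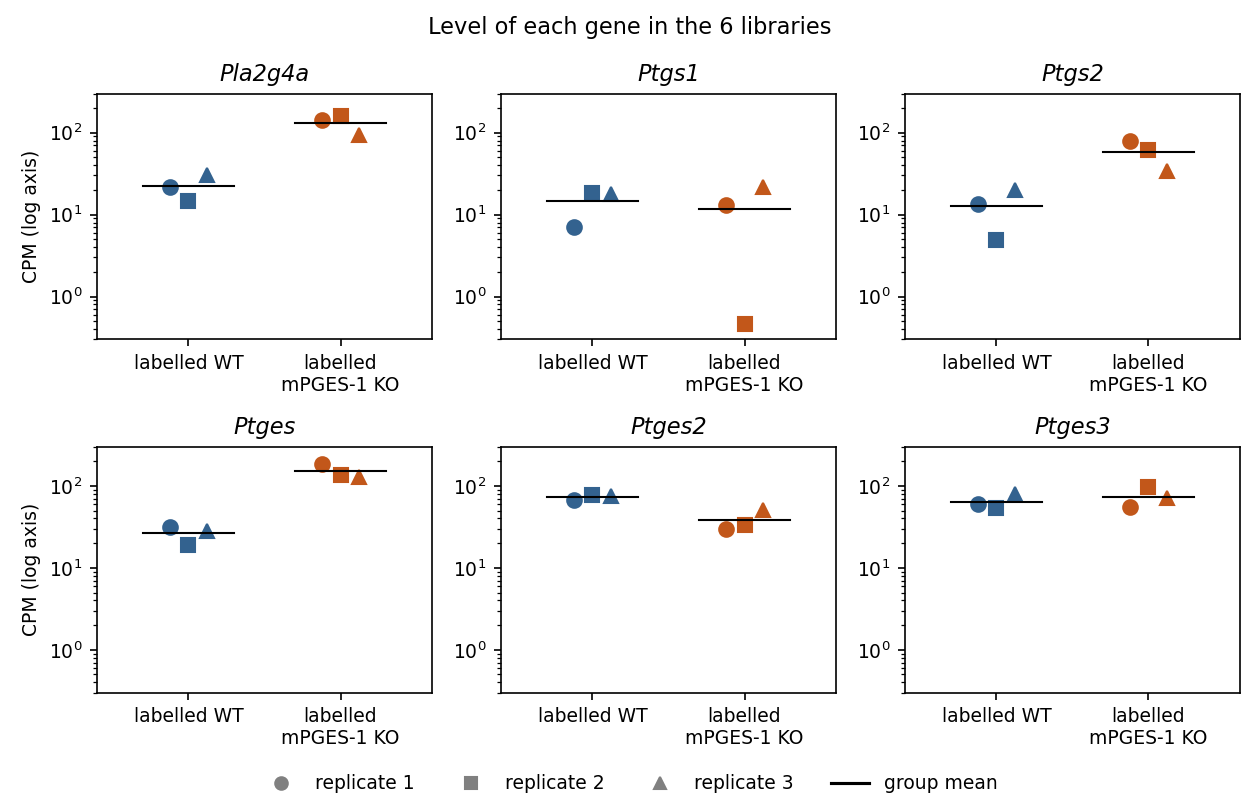
CPM of each of the 6 genes in every library, on a log axis; points are libraries, shapes are replicate numbers and lines are group means. Ptges, Pla2g4a and Ptgs2 sit higher in all 3 KO-labelled libraries, Ptges2 sits lower, and Ptgs1 has 1 library at 0.461 CPM.

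Ptges encodes mPGES-1, the inducible, glutathione-dependent synthase that is the target of the knockout. Its gene lies on the minus strand of chromosome 2 (GRCm38, 30889471 to 30929863), with 4 annotated transcripts, and the RefSeq start site used above lies inside that span. It was measured at 31.9, 19.2 and 27.9 CPM in WT replicates 1 to 3 and at 186, 136.5 and 128.5 CPM in KO replicates 1 to 3. The lowest KO-labelled library was thus above the highest WT-labelled one, and within each group the libraries differed by no more than 1.66-fold. The fitted log2 fold change was 2.51 ± 0.31 (SE), with a 95% interval of 1.79 to 3.24, which is 3.45-fold to 9.45-fold (edgeR, adjusted p = 0.0171). Its adjusted p was 0.0752 without WT replicate 2, 0.0881 without KO replicate 2 and 0.0658 without KO replicate 3. Deposited counts are summed over the gene, so they show neither whether a part of the transcript is missing nor whether a functional protein is made.

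Pla2g4a encodes cytosolic phospholipase A2 alpha, the calcium-dependent enzyme that prefers arachidonate-bearing phospholipids. It spans positions 149829618 to 149961290 on the minus strand of chromosome 1. Levels were 21.5, 14.5 and 30.7 CPM in WT replicates 1 to 3, and 144.5, 157.8 and 93.8 CPM in KO replicates 1 to 3. The lowest KO-labelled value was again above every WT-labelled one. The log2 fold change was 2.57 ± 0.38 (SE), with a 95% interval of 1.69 to 3.45 (edgeR, adjusted p = 0.0233). Its adjusted p was 0.0944 when WT replicate 2 was left out, 0.0593 for KO replicate 1, 0.102 for KO replicate 2 and 0.0677 for KO replicate 3, all past the threshold, with log2 fold changes of 2.40 to 2.77 in those fits.

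Ptgs2 encodes cyclooxygenase-2, the inducible cyclooxygenase, on the plus strand of chromosome 1 from 150100031 to 150108227. It was measured at 13.4, 4.86 and 20.1 CPM in WT replicates 1 to 3 and at 78.2, 61.9 and 34.2 CPM in KO replicates 1 to 3. The groups did not overlap, but the WT-labelled libraries spread 4.13-fold. The log2 fold change of 2.19 ± 0.58 (SE; 95% interval 0.85 to 3.52) did not pass in edgeR (adjusted p = 0.0925). It passed in DESeq2 (adjusted p = 0.00249) and in limma-voom with quality weights (adjusted p = 0.0241), and its adjusted p ran up to 0.235 over 13 alternatives.

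Ptgs1 encodes cyclooxygenase-1, the constitutive form, on the plus strand of chromosome 2 from 36230426 to 36252272. Its levels were 7.15, 18.4 and 17.9 CPM in WT replicates 1 to 3, and 13.0, 0.461 and 21.7 CPM in KO replicates 1 to 3. KO replicate 2 held only 11 counts, with a 95% counting interval of 0.23 to 0.825 CPM, while the other KO-labelled libraries held 356 and 766 counts and fell within or above the WT-labelled range. The log2 fold change of -0.30 ± 1.08 (SE; 95% interval -2.81 to 2.20) did not pass (edgeR, adjusted p = 0.922). It became 0.28 without KO replicate 2, and -2.44 in limma-voom, so its direction depends on that library. The interval covers both a 4.59-fold increase and a decrease of several fold, and does not show equal levels. Of its exonic bases 3.81% are shared with the opposite-strand gene Gm43621, and no step of the stated library preparation marks strand.

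Ptges2 encodes the membrane-associated PGE synthase-2, which is expressed in many resting tissues, from 32395896 to 32405772 on the plus strand of chromosome 2. It was the only one of the 6 lower in every KO-labelled library: 66.7, 78.4 and 75.0 CPM in WT replicates 1 to 3 against 29.9, 33.4 and 50.5 CPM in KO replicates 1 to 3. The WT-labelled libraries agreed closely, with a coefficient of variation of 8.19%. The log2 fold change was -0.95 ± 0.31 (SE; 95% interval -1.66 to -0.24) and did not pass (edgeR, adjusted p = 0.14), while limma-voom called it (-1.08, adjusted p = 0.0389). Its adjusted p over 13 alternatives ran from 0.0389 to 0.386.

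Ptges3 encodes p23, also named cytosolic PGE synthase, which works as a co-chaperone of HSP90. It lies on the plus strand of chromosome 10 from 128058954 to 128077272. Levels were 60.9, 53.0 and 78.6 CPM in WT replicates 1 to 3 and 55.3, 96.4 and 70.6 CPM in KO replicates 1 to 3, so the groups overlapped. The log2 fold change was 0.21 ± 0.31 (SE; 95% interval -0.51 to 0.93) and did not pass (edgeR, adjusted p = 0.79), which leaves room for up to a 1.91-fold increase. A processed copy, Ptges3-ps, has its own row with 28 to 58 counts per library, 1.52% to 2.52% of the Ptges3 count, and reads could be divided between them.

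**Figure D2:**
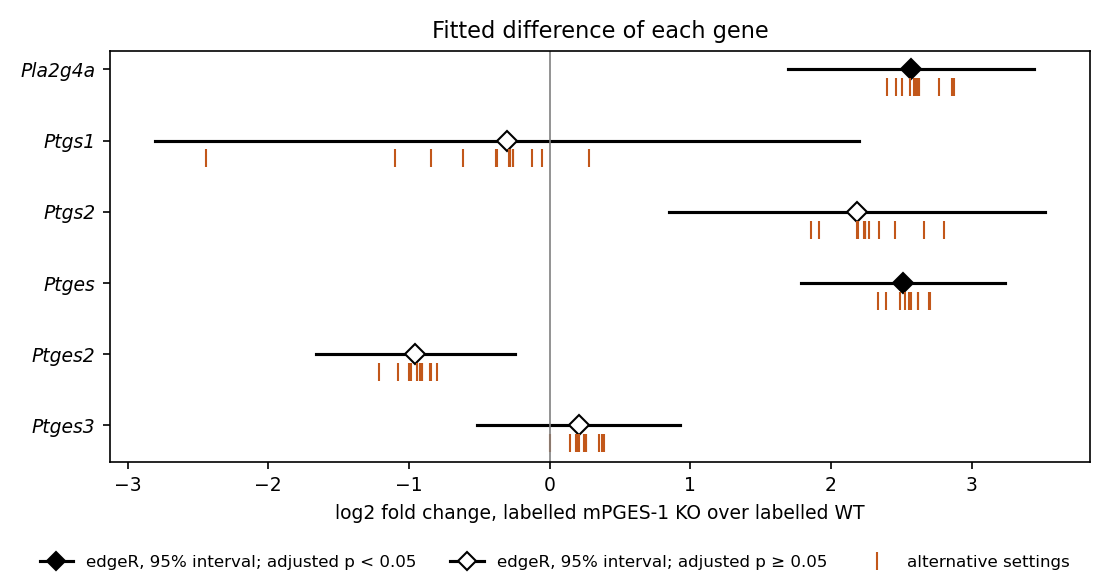
Log2 fold change of each gene, KO-labelled over WT-labelled, with its 95% interval from edgeR; filled diamonds passed an adjusted p of 0.05 and ticks are the 13 alternative settings. Ticks of Ptges and Pla2g4a stay between 2.34 and 2.87, whereas those of Ptgs1 run from -2.44 to 0.28.

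Set per kilobase of exon, the order of the 6 genes differed between the groups. In the WT-labelled libraries Ptges3 led at 28.9 ± 5.89 CPM per kilobase (SD, n = 3), followed by Ptges2 at 14.5 ± 1.19 and Ptges at 6.70 ± 1.65, with ranges that did not meet. Below them Ptgs1 (3.73 ± 1.64), Pla2g4a (3.48 ± 1.27) and Ptgs2 (2.79 ± 1.67) overlapped. In the KO-labelled libraries Ptges was at 38.3 ± 7.92 and Ptges3 at 33.4 ± 9.38 CPM per kilobase, and their ranges overlapped. Pla2g4a followed at 20.7 ± 5.28, its lowest library within the range of Ptgs2 (12.7 ± 4.86). Ptges2 came next at 7.49 ± 2.18, overlapping Ptgs2, and Ptgs1 was last at 3.02 ± 2.75. These levels use the union of annotated exons as length, which is longer than any single transcript.

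The synthases differed in their shares. Ptges made up 16.6%, 11.0% and 12.4% of the summed synthase level per kilobase in WT replicates 1 to 3, and 60.5%, 40.9% and 43.9% in KO replicates 1 to 3. Ptges2 went the other way, from 27.0%, 35.0% and 25.8% to 7.55%, 7.78% and 13.4%. The summed level was 50.2 ± 6.63 and 79.2 ± 5.24 CPM per kilobase (SD, n = 3), and the groups did not overlap. The ratio of Ptges to Ptges2 within a library, which needs no scaling between libraries, had a mean log2 value of -1.14 ± 0.49 in the WT-labelled and 2.37 ± 0.65 in the KO-labelled libraries (SD, n = 3), a difference of 3.51 (exact permutation test, two-sided, p = 0.1, the smallest that 3 against 3 allows; 0.4 after adjustment over 4 ratios). Ptges thus stood below Ptges2 per kilobase in 3 of 3 WT-labelled libraries and above it in 3 of 3 KO-labelled ones.

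Of the cyclooxygenase level per kilobase, Ptgs2 made up 61.4%, 18.3% and 48.7% in WT replicates 1 to 3 and 83.6%, 99.1% and 57.2% in KO replicates 1 to 3. The groups overlapped, and the log2 ratio of Ptgs2 to Ptgs1 differed by 3.72 with an exact permutation p = 0.2 (two-sided; 0.4 adjusted over 4 ratios). Without KO replicate 2, whose ratio of 114 came with 11 Ptgs1 counts, the difference was 1.91. The summed cyclooxygenase level was 6.52 ± 2.20 and 15.7 ± 4.10 CPM per kilobase (SD, n = 3) and did not overlap between groups, from 4.77 to 8.99 against 13.1 to 20.4.

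The ratios of Ptges and of Pla2g4a to Ptgs2 differed between groups by less than their spread within a group. The log2 ratio of Ptges to Ptgs2 was 1.46 ± 0.75 in the WT-labelled and 1.65 ± 0.42 in the KO-labelled libraries (SD, n = 3), a difference of 0.20 (exact permutation test, two-sided, p = 0.9, adjusted 0.9). Its sign turned without WT replicate 3 (-0.18) and without KO replicate 3 (-0.04). The ratio of Pla2g4a to Ptgs2 was 0.48 ± 0.54 and 0.75 ± 0.30, a difference of 0.27 (exact permutation p = 0.5, adjusted 0.667), which ran from 0.10 to 0.58 with each library left out. These values do not show that the ratios were equal, since a design of 3 against 3 cannot pass a threshold of 0.05 by permutation.

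**Figure D3:**
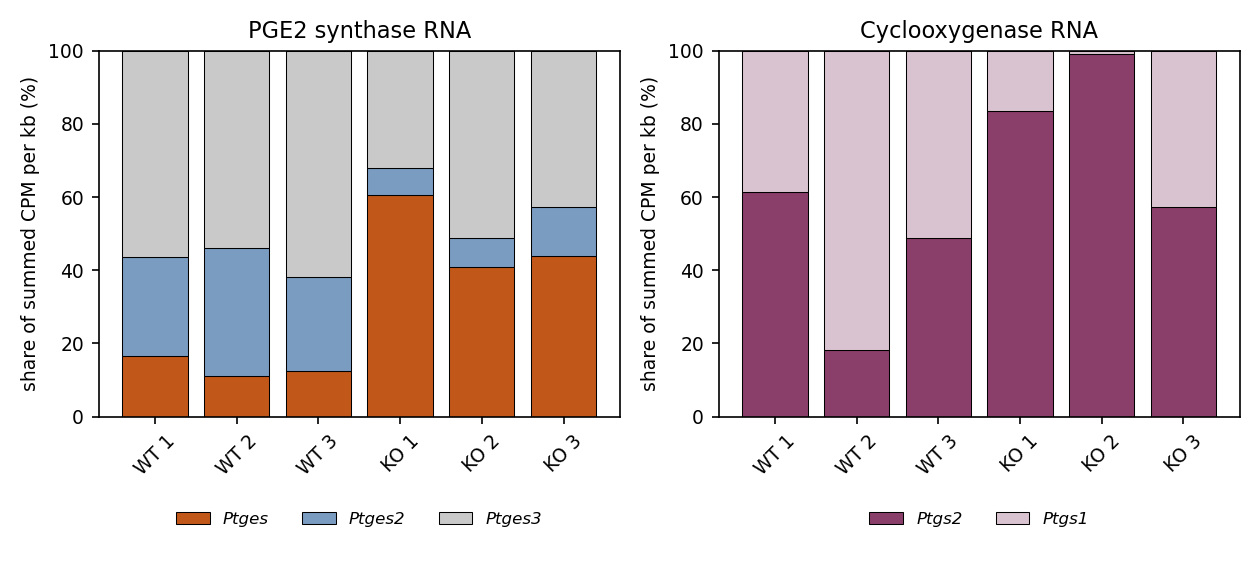
Share of the summed CPM per kilobase within each library, for the PGE2 synthases (left) and the cyclooxygenases (right). Ptges takes 11.0% to 16.6% of synthase RNA in the WT-labelled libraries and 40.9% to 60.5% in the KO-labelled ones, while the Ptgs2 share overlaps between groups.

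The labelled cell type was checked against lists of marker genes, and the same libraries differed in markers of other cell types. Fibroblast markers were present in all 6 libraries, with sums of 9056 to 26750 CPM in the WT-labelled and 6240 to 17530 CPM in the KO-labelled libraries, which overlapped, and a median log2 fold change of -0.92 over the 10 tested (Pdpn was not a row of the table). Thy1 was called lower and 0 were called higher. Col1a1 was at -2.50, Col1a2 at -1.36 and Col3a1 at -1.17, none of which passed, while Dcn was at 0.43 and Pdgfra at 0.11. Luminal epithelial markers were called higher in 6 of 15 and lower in 0, where edgeR called 1.20% of all tested genes higher and 1.56% lower. Their summed level was 6953 to 13340 CPM in the WT-labelled and 35260 to 51700 CPM in the KO-labelled libraries, with Csn2 not a row of the table and no marker at 0. Lalba alone had a negative log2 fold change (-0.84), with Elf5 at 0.66 and Wap at 0.36, and none of these passed. Markers of pericytes and vascular smooth muscle, named pericyte markers for short, were called lower in 10 of 13 and higher in 0. Their sums were 3728 to 9612 against 244 to 503 CPM. Both counts of calls went to 0 without WT replicate 2, KO replicate 2 or KO replicate 3, while the medians kept their direction (1.74 to 2.43 luminal, -4.66 to -3.84 pericyte, with each library left out). The luminal sum was above the fibroblast sum in KO replicates 1 to 3 (51700, 35590 and 35260 against 17530, 6240 and 9366 CPM). It was also above it in WT replicate 1 (13340 against 12110 CPM) and below it in WT replicates 2 and 3. Sums over lists of different genes do not give shares of cells, so the label was not settled by these markers. Macrophage sums overlapped, at 332 to 1215 and 424 to 2028 CPM. Endothelial sums also overlapped, at 17.4 to 87.3 and 9.68 to 48.6 CPM, and Cdh5 and Tie1 were at 0 in at least 1 library. Neutrophil sums were 8.401 to 26.5 and 5.83 to 64.3 CPM and lymphocyte sums 16.3 to 60.0 and 47.3 to 369 CPM, with 0 called by edgeR in either; only S100a8 of 6 neutrophil markers (Ly6g, Cxcr2 and Retnlg were not rows of the table) and 7 of 8 lymphocyte markers were tested. Mast cell markers had 1 of 2 tested called higher (Kit), with Tpsb2 and Cma1 at 0 in some libraries. Cpa3, Mcpt4 and Fcer1a were not rows of the table, so the mast cell call is that of Kit alone. Basal epithelial markers had 1 of 5 called lower (Acta2, also a pericyte marker), but their median log2 fold change was 0.21. Krt5 (1.28), Krt14 (0.74) and Krt17 (0.21) were above 0 and Trp63 (-0.28) below, and none of these passed. In bulk RNA, fewer cells of a type and less RNA per cell cannot be told apart.

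Ptges was set beside the luminal sum library by library. Within each group the order of the libraries by Ptges was also their order by luminal sum: replicate 1, 3, 2 among the WT-labelled (13340, 9083 and 6953 CPM) and replicate 1, 2, 3 among the KO-labelled (51700, 35590 and 35260 CPM). The order by Epcam alone was the same among the WT-labelled but not among the KO-labelled libraries, where replicates 1 to 3 held 4686, 4899 and 3743 CPM. In luminal sum, KO replicates 2 and 3 were almost level. The order by Pla2g4a matched that by luminal sum in neither group, and the order by Ptgs2 only among the KO-labelled libraries. Per 1000 counts of luminal markers there were 2.39, 2.76 and 3.07 Ptges counts in WT replicates 1 to 3 and 3.60, 3.84 and 3.64 in KO replicates 1 to 3. The luminal sum itself was 4.17-fold higher in the KO-labelled libraries, so a gene that rose as Ptges did must differ less per luminal count. On that scale the log2 difference of Ptges was 0.44, where it was 2.51 per library total, and the groups still did not overlap (exact permutation test, two-sided, p = 0.1). It was 0.36 with Csn3 left out of the sum. Per count of Epcam alone, the epithelial adhesion molecule that was 9.18-fold higher in the KO-labelled libraries, the difference was -0.71, so its direction depends on the marker chosen.

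Pla2g4a and Ptgs2 were set on the luminal scale too, where the higher luminal sum likewise makes their differences smaller. Pla2g4a stood at 1.61, 2.09 and 3.38 per 1000 luminal counts in WT replicates 1 to 3 and 2.79, 4.44 and 2.66 in KO replicates 1 to 3, a log2 difference of 0.51 with overlapping groups (exact permutation p = 0.3). That difference was 0.27 without WT replicate 1, 0.28 without KO replicate 2 and 0.81 without WT replicate 3. For Ptgs2 it was 0.24 (exact permutation p = 0.8), and between -0.13 without WT replicate 2 and 0.71 without WT replicate 3; with Csn3 left out it was 0.16, and below 0 without WT replicate 2 (-0.31) or KO replicate 1 (-0.04). Per count of Epcam the differences were -0.63 for Pla2g4a and -0.91 for Ptgs2, and without WT replicate 3 they were -0.39 and -0.49. Ptges2 had a log2 difference of -3.08 per luminal count, against -0.95 per library total (not called by edgeR). The 4.17-fold higher luminal sum lowers every gene on this scale, so the scale itself makes the Ptges2 difference larger. Per count of the 10 fibroblast markers the differences were 3.03 for Ptges, 3.11 for Pla2g4a, 2.84 for Ptgs2 and -0.48 for Ptges2, the last turning to 0.07 without KO replicate 1. The part of epithelial or pericyte RNA in the differences of the 6 genes was not tested further.

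Position gave a further description. Pla2g4a and Ptgs2 are neighbours on chromosome 1, separated by 138740 bases with no other tested gene between them, and are read from opposite strands. The next tested gene beyond Pla2g4a, Rgs1, lies 5580375 bases away and was at 0.47 ± 0.98 on the log2 scale (SE; adjusted p = 0.859). The one beyond Ptgs2, the antisense RNA gene Ptgs2os2, averaged 0.548 and 0.61 CPM in the groups. Ptges is flanked by the homeobox gene Prrx2 at 8219 bases, which stood at -2.43 ± 0.82 (adjusted p = 0.16), and by Tor1b at 23095 bases, at -0.08 ± 0.28 (adjusted p = 0.915). Ptges2 lies 7643 bases from Lcn2, which encodes the iron-carrier protein lipocalin 2. Lcn2 rose with a log2 fold change of 2.37 ± 0.42 (edgeR, adjusted p = 0.0329), opposite in sign to Ptges2, and was called in 1 of 6 fits that left a library out (adjusted p up to 0.127). Slc25a25, on the other side of Ptges2, was at -0.25 ± 0.31 (adjusted p = 0.743). The neighbours of Ptges3, Naca and Atp5b, were at -0.05 ± 0.24 and 0.33 ± 0.32, and those of Ptgs1, Mrrf and Gm13436, at -0.69 ± 0.41 and -0.05 ± 1.09, with 15.1% of Mrrf exonic bases overlapping an opposite-strand gene; none of these 4 passed.

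**Figure D4:**
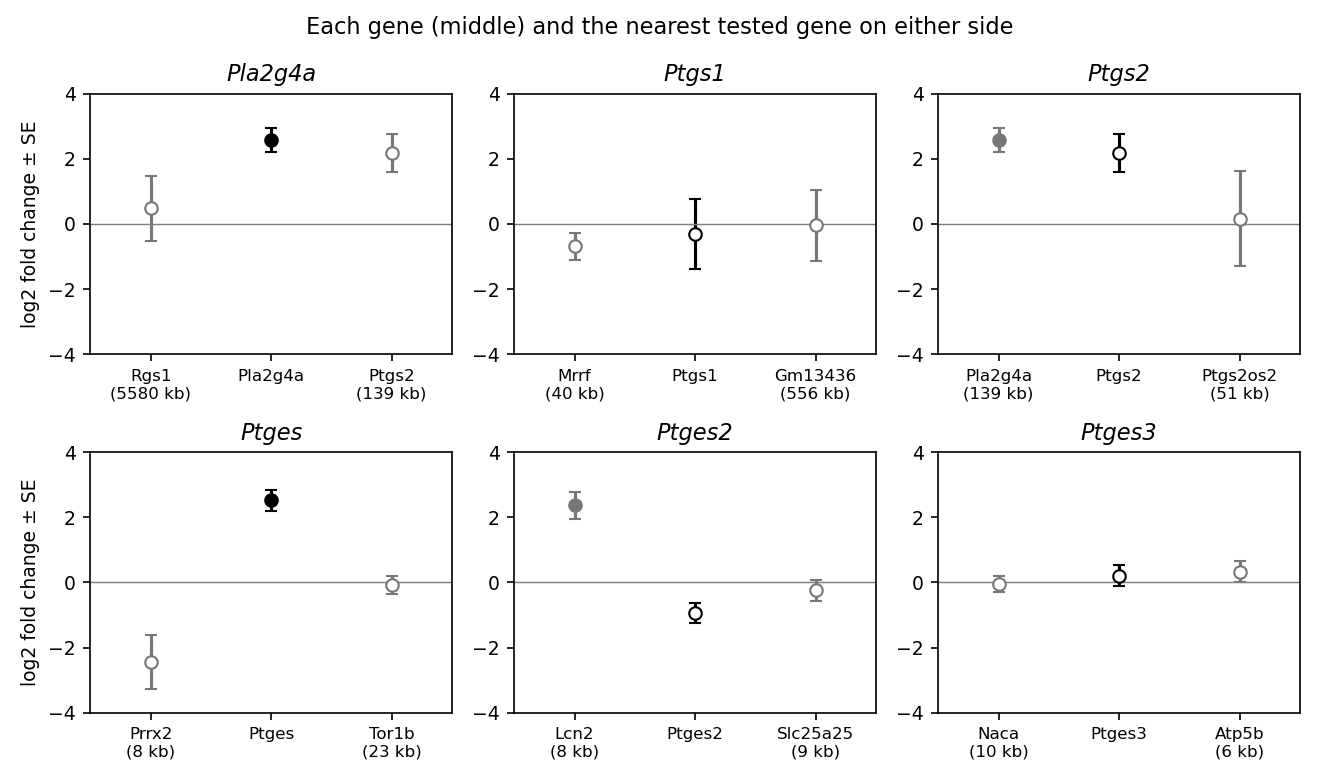
Log2 fold change ± SE of each gene (middle, black) and of the nearest tested gene on either side (grey, with its distance); filled points passed an adjusted p of 0.05. Pla2g4a and Ptgs2 appear in each other's panel, at 2.57 and 2.19, and Lcn2 at 2.37 stands opposite Ptges2 at -0.95.

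The genes whose pattern over the 6 libraries lay closest to each member were ranked among 10857 genes by the root mean square difference of centred log2(CPM + 1). Closest to Ptges were Ier3 (0.128), an immediate early gene, Pde4b (0.166), a phosphodiesterase that breaks down cAMP, and Lrrtm2 (0.202). Closest to Pla2g4a were Ocln (0.173), which encodes the tight junction protein occludin, Pde4b again (0.182) and Sox9 (0.224). Closest to Ptgs2 were CT025556.1, a gene listed by its clone name (0.239), Creb5 (0.261) and Sc5d (0.281). Between members, Ptges and Pla2g4a differed by 0.293, Pla2g4a and Ptgs2 by 0.357 and Ptges and Ptgs2 by 0.47. Ptges2 lay closest to Zfp467 (0.0597), Mapk3 (0.073) and Gemin7 (0.0897; 14.8% of its exonic bases overlap an opposite-strand gene), and Ptges3 to Dedd2 (0.0621), Thnsl2 (0.0918) and Ywhag (0.0972). For Ptgs1 the nearest, Hbb-bt (0.531), Lefty1 (0.534) and Atp10a (0.601), were farther off, and all 3 had their lowest level in KO replicate 2. A gene with a larger change has more room to differ, so these distances are not comparable between a member with a wide and a member with a narrow range.

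The rest of the pathway was read from 10 lists holding 130 tested genes besides the members. Of these, 5 were called higher and 1 lower, or 4.62% beside 2.76% of all tested genes, and the median log2 fold change was 0.16. The calls fell in 4 of the 10 lists, at most 3 in a list. Each of the 6 calls was lost in at least 3 of the 6 fits that left a library out, and none was kept without WT replicate 2, KO replicate 2 or KO replicate 3.

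Upstream of Ptgs2, the genes that free or store arachidonate showed 1 call. Acsl4, an acyl-CoA ligase that prefers arachidonate and activates it for re-esterification, rose from 26.1, 13.3 and 24.1 CPM in WT replicates 1 to 3 to 91.2, 133 and 68.0 CPM in KO replicates 1 to 3 (log2 fold change 2.20 ± 0.40, edgeR adjusted p = 0.0349). It was the only call among 15 genes of arachidonate activation and re-esterification, whose median was 0.57. Of these 15, 4 had an unadjusted p under 0.05, 4 were called by DESeq2 and 3 by limma-voom. The shares over all genes were 19.1%, 14.3% and 11.9%. The acyltransferase Lpcat3 was at 52.1 ± 17.5 and 72.3 ± 12.8 CPM (adjusted p = 0.506; 10.2% of its exonic bases overlap an opposite-strand gene) and the elongase Elovl5 at 41.1 ± 3.86 and 74.4 ± 14.4 CPM (adjusted p = 0.146). The Acsl4 adjusted p was 0.0453 to 0.128 with each library left out, and the call held only without WT replicate 1. Of 17 other phospholipases and lipases edgeR called 0, with 3 at an unadjusted p under 0.05, 1 called by DESeq2 and 2 by limma-voom; the median was -0.28. Pnpla2, the adipose triglyceride lipase and the most abundant of these per kilobase, was at 130 ± 54.9 and 255 ± 38.6 CPM (SD, n = 3; adjusted p = 0.168), and the secreted phospholipase Pla2g12a at 67.7 ± 21.5 and 83.8 ± 20.4 CPM (adjusted p = 0.69). Among 14 activators and inhibitors of cytosolic phospholipase A2, edgeR called 0, with 7 at an unadjusted p under 0.05 (beside 19.1% of all tested genes), 2 called by DESeq2 and 3 by limma-voom (beside 14.3% and 11.9%). Anxa1, the glucocorticoid-induced inhibitor of the enzyme, was at 1728 ± 487 and 3237 ± 1054 CPM (adjusted p = 0.236), and Anxa5 at 1479 ± 176.5 and 914 ± 184 CPM (adjusted p = 0.227).

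Among the other outlets of PGH2 and arachidonate, 1 gene was called. Of 10 other prostanoid synthases and reductases edgeR called 0, with 1 at an unadjusted p under 0.05, 0 called by DESeq2 and 1 by limma-voom. The aldo-keto reductase Akr1b8 was at 90.8 ± 9.62 and 47.0 ± 13.5 CPM (adjusted p = 0.135), and the carbonyl reductase Cbr2 at 82.5 ± 50.8 and 90.0 ± 36.0 CPM (adjusted p = 0.927). Of 8 lipoxygenase and leukotriene genes, Ggt5, which cuts leukotriene C4, was called. In that list 1 gene had an unadjusted p under 0.05 in edgeR, and DESeq2 and limma-voom each called 1. Over all genes edgeR called 2.76%, DESeq2 14.3% and limma-voom 11.9%, and 19.1% had an unadjusted p under 0.05. Ggt5 fell from 56.7, 90.5 and 52.0 CPM in WT replicates 1 to 3 to 10.7, 3.52 and 3.14 CPM in KO replicates 1 to 3 (log2 fold change -3.52 ± 0.59, edgeR adjusted p = 0.0296). The call held only without WT replicate 1 and without KO replicate 1, with adjusted p up to 0.129. Lta4h, the leukotriene A4 hydrolase, was at 105 ± 5.05 and 104 ± 22.7 CPM (adjusted p = 0.993), and Ephx2 was at 20.3 ± 15.3 and 27.0 ± 13.3 CPM.

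mPGES-1 belongs to the MAPEG family of small membrane proteins that use glutathione, and edgeR called 0 of its 5 relatives, with 1 at an unadjusted p under 0.05 and 1 called by each of DESeq2 and limma-voom. Mgst1, a glutathione transferase of detoxification, was at 1066 ± 427 and 1361 ± 168 CPM (adjusted p = 0.66), and Mgst3 at 192 ± 77.6 and 64.4 ± 21.1 CPM (adjusted p = 0.0757). Of 9 genes of PGE2 reception, transport and breakdown 0 were called by edgeR, DESeq2 or limma-voom and 0 had an unadjusted p under 0.05. Hpgd, the dehydrogenase that inactivates PGE2, was at 14.1 ± 7.87 and 25.8 ± 15.9 CPM, and Ptgr1 at 25.9 ± 9.92 and 25.6 ± 7.42 CPM. Around Ptges3, edgeR called 0 of 14 HSP90 genes and co-chaperones, with 7 at an unadjusted p under 0.05, 3 called by DESeq2 and 6 by limma-voom, beside the shares of 19.1%, 14.3% and 11.9% over all genes given above, and a median of 0.50. Hsp90ab1 was at 892 ± 101 and 1351 ± 117 CPM (adjusted p = 0.252) and Hspa8 at 523 ± 161 and 1113 ± 97.1 CPM (adjusted p = 0.1003).

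Among regulators known at Ptgs2 or Ptges, edgeR called 4 higher and 0 lower, and the most abundant early factors were not among them. Of 27 transcription factors, Atf3 rose from 666, 301 and 628 CPM to 3688, 4113 and 4282 CPM (replicates 1 to 3; log2 fold change 2.92 ± 0.38, adjusted p = 0.0177), Nfkb1 from 24.9, 42.1 and 61.6 to 323, 151 and 152 CPM (2.28 ± 0.46, adjusted p = 0.0462), and Fosl1 from 11.4, 3.72 and 2.42 to 149.9, 140 and 88.1 CPM (4.43 ± 0.65, adjusted p = 0.0233). The Nfkb1 call was lost with any library left out (adjusted p 0.0617 to 0.175). Atf3 held in 3 of 6 such fits and Fosl1 in 2, and 57.2% of the exonic bases of Fosl1 overlap the opposite-strand gene Ccdc85b, so its value is uncertain. The AP-1 subunits Fos (6378 ± 853 and 6006 ± 1349 CPM, adjusted p = 0.921) and Junb (6497 ± 1758 and 3218 ± 545 CPM, adjusted p = 0.14) were the most abundant per kilobase and did not pass. The median over the 27 was 0.09, with 8 at an unadjusted p under 0.05, 6 called by DESeq2 and 5 by limma-voom. Of 13 RNA-binding proteins tied to Ptgs2 mRNA, Tob1, an anti-proliferative protein that recruits deadenylase, rose from 144 ± 21.8 to 1128 ± 445 CPM (2.97 ± 0.39, adjusted p = 0.0177), with the call kept in 2 of 6 fits with a library left out. Zfp36, which encodes the mRNA-destabilising protein tristetraprolin, was at 3081 ± 288 and 3865 ± 778 CPM (adjusted p = 0.608). The list had a median of 0.43, with 5 genes at an unadjusted p under 0.05, 2 called by DESeq2 and 5 by limma-voom. Over all genes edgeR called 2.76%, DESeq2 14.3% and limma-voom 11.9%, and 19.1% had an unadjusted p under 0.05.

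**Figure D5:**
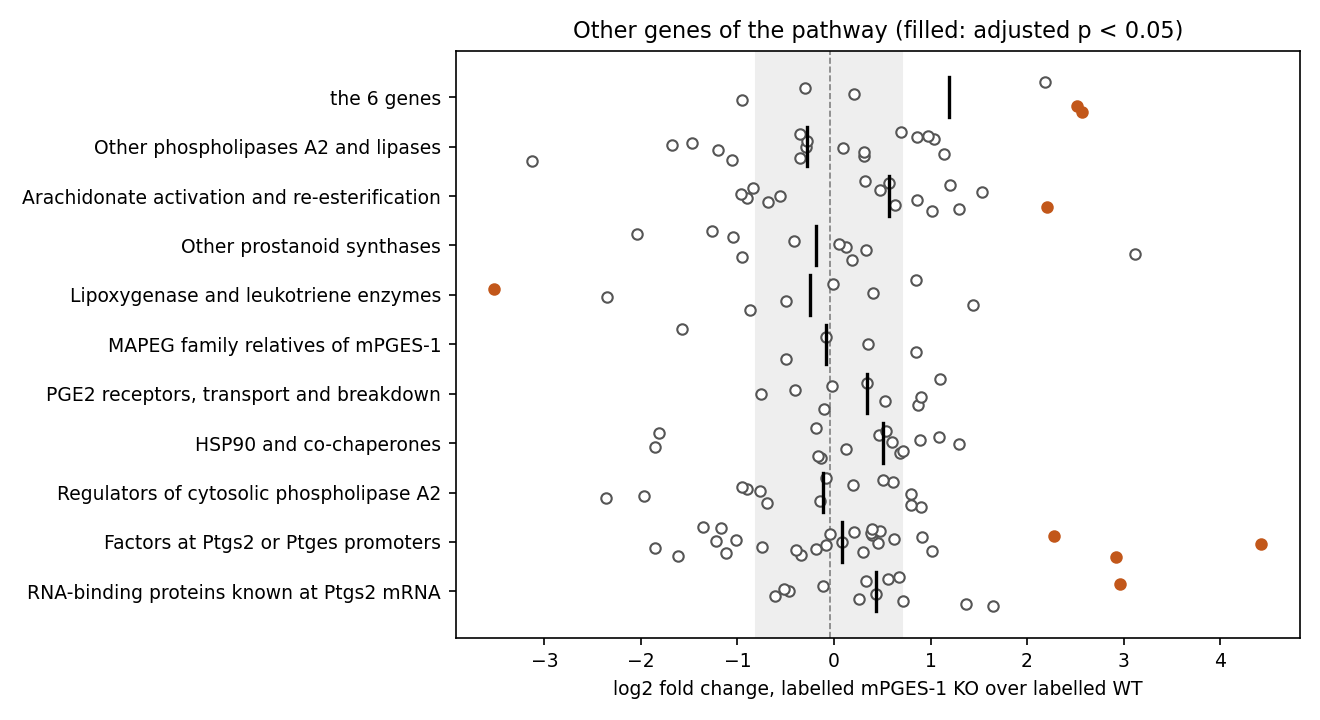
Log2 fold change of every tested gene in the 10 pathway lists and of the 6 genes (top row), KO-labelled over WT-labelled; filled points passed an adjusted p of 0.05, black bars are list medians, and the grey band is the interquartile range of all tested genes, -0.80 to 0.71. The dashed line is the median of all tested genes, -0.04. The 10 list medians lie inside the band, and the called genes are Acsl4, Ggt5, Nfkb1, Atf3, Fosl1 and Tob1 besides Ptges and Pla2g4a.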

How the data were processed

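Per the labels' protocols, cDNA was made with SMART-Seq v4, amplified by 16 PCR cycles and sequenced as single reads of 75 cycles. No strand marking or molecular identifier is named there, so counting intervals cover counting error only. FastQC 0.11.5, STAR and the build mm10 were used per the submitters' processing notes. The authors deposited unnormalized whole-number counts for each symbol; for the counting program and its annotation, the sources used here give no name.

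Counts were tested across all genes in R 4.3.3 with edgeR 4.0.16 (filterByExpr, TMM, robust quasi-likelihood, two-sided, Benjamini-Hochberg over 16543 genes, threshold 0.05); the standard error is the log2 fold change over the square root of F. The script was tested on simulated data with 50 changed genes of each size. It recovered 0 at a log2 fold change of 1, 6 at 2, 37 at 4 and 41 at 6 (either direction), with 8 false calls. A gene that did not pass may therefore still differ. Alternatives were DESeq2 1.42.0, limma-voom (limma 3.58.1), other scalings and filters, the replicate number as a block and each library left out. Ratios were tested by exact permutation (scipy 1.17.1). Positions, exonic lengths and neighbours come from GENCODE M21 on GRCm38, which mm10 also names, and promoter windows from RefSeq on GRCm38.p6, found for 6 of 6 genes. Named are the 6 genes, called and the 2 most abundant genes per pathway list, the nearest tested genes on either side, and the 3 closest patterns at a mean of at least 5 CPM. Predicted genes and pseudogenes were left out of the patterns, but the clone-named CT025556.1 was kept. The members and lists were chosen with earlier results of these data known, and ratios to marker sums were added after the data were seen. Whether each library is a separate animal is not in the labels, and p-values reflect spread that may be technical.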

Additional observations from a re-analysis of the deposited data

How the results depend on the processing

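Over 13 alternatives the log2 fold changes of Ptges (2.34 to 2.71), Pla2g4a (2.40 to 2.87) and Ptgs2 (1.86 to 2.81) stayed positive and that of Ptges2 (-1.21 to -0.80) negative. With each library left out they ran from 2.34 to 2.71, 2.40 to 2.87, 1.86 to 2.66 and -1.21 to -0.80, and Ptgs1 ran from -1.10 to 0.28; the number of genes called ran from 0 to 568 and that of pathway list genes from 0 to 8. With the replicate number as a block, Ptges (2.53, adjusted p = 0.0803) and Pla2g4a (2.61, adjusted p = 0.0972) were not called, and edgeR called 0 genes, 0 of them in the lists, with 2716 at an unadjusted p under 0.05. Same-numbered libraries did not deviate together (correlations -0.063, 0.028 and -0.017 across genes). With 3 libraries per group, these values cannot exclude a shared batch or a pairing. DESeq2 called 2108 genes and 20 list genes, with Ptgs2 at 2.24; limma-voom called 1965 and 27, with Ptgs2 at 2.81 and Ptges2 at -1.08; an adjusted p under 0.1 gave 1113. The cause of these differences was not tested. With each library left out, the difference in the log2 ratio of Ptges to Ptgs2 ran from -0.18 to 0.57. Per luminal marker count Ptgs2 ran from -0.13 to 0.71, or -0.31 to 0.61 without Csn3, and Ptges2 per fibroblast marker count from -0.915 to 0.071. The 11 counts of Ptgs1 in KO replicate 2 limit any statement on that gene.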
